A study of Homo sapiens with 6 samples.

Results

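The Hippo pathway genes described here are YAP1, WWTR1 (which encodes TAZ), TEAD1, TEAD2, TEAD3, TEAD4, LATS1, LATS2, AMOTL2 and ANKRD1, taken from the deposited count table by gene symbol. All 10 were found, each in 1 of the 27452 rows of the table, and all 10 passed the filter on low counts that left 14999 genes for testing. ANKRD1 passed it through 1 group of libraries alone, as described below. The RNA is labelled as that of HepG2, an established line from a human liver cancer, and the culture medium was DMEM with serum (FBS) and antibiotics. The cells carried either a control short hairpin RNA (Ctrl shRNA) or one against the transcription factor STAT3 (STAT3 shRNA), with 3 libraries for each. A short hairpin RNA is cut in the cell to a short interfering RNA that lowers the transcript it matches. The labels do not say whether the numbered libraries are separate cultures, clones or hairpin sequences, and p-values here reflect no more than the spread between them, which may be technical. Any other difference between the constructed lines cannot be told apart from the effect of the hairpin.

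The Hippo pathway is a kinase relay that restrains tissue growth. The MST kinases activate LATS1 and LATS2, which phosphorylate the coactivators YAP and TAZ and so hold them in the cytoplasm or mark them for breakdown. Coactivator that escapes enters the nucleus and joins a TEAD protein, which binds DNA at a short motif and switches on target genes. In the liver the pathway is known for limiting organ size, and much of its control acts on the proteins rather than on the level of their transcripts, which is what these libraries measured.

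Total counts ran from 17408543 to 25862027 per library. STAT3 measured 261.5, 246.7 and 246.3 CPM under the control hairpin and 34.8, 35.8 and 36.2 CPM under the STAT3 hairpin, each in the order of libraries 1, 2 and 3 (CPM, counts scaled to a common, composition-corrected library size). By the quasi-likelihood test of edgeR its log2 change was -2.82 ± 0.0845 (SE, adjusted p = 2.19e-07), so STAT3 was low in the libraries labelled as knockdown. Hepatocyte markers were scarce under both hairpins. Of 20 hepatocyte markers, 11 were in the table and 3 reached 1 CPM in any library. The 11 summed to 4.32 to 5.17 CPM in the control libraries and 7.52 to 10.65 CPM in the STAT3 shRNA libraries. Of the 3 tested, 1 rose and 0 fell. The 1 was HNF4A, with means of 1.51 CPM under the control hairpin and 6.58 CPM under the STAT3 hairpin (2.12 ± 0.24, edgeR adjusted p = 0.000406). TF and RBP4 had negative changes that did not pass. For albumin (ALB) the 6 libraries held 2, 0, 0, 0, 0 and 3 counts. The other 9 markers were not analysed here. In the rest of the text the cells are therefore called only by their label.

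ANKRD1 and CCN2, target genes of the pathway that were higher in the STAT3 shRNA libraries, hold several copies of the TEAD motif upstream, and their sequences are shown first. They were picked for display after their values were seen. The motif searched was GGAATG on either strand, the core of the site that TEAD proteins bind, within the 250 bases before each transcription start in RefSeq (GRCh38.p14). The ANKRD1 window is chr10:90921088-90921337, minus strand, and the CCN2 window is chr6:131951373-131951622, minus strand. Both are written 5′ to 3′ in the direction of transcription, with matches to the motif in capitals.
ANKRD1: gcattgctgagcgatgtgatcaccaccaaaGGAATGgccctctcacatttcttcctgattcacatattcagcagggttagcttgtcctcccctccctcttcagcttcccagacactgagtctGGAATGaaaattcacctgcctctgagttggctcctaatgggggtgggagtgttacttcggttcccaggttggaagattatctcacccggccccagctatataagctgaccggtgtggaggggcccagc
CCN2: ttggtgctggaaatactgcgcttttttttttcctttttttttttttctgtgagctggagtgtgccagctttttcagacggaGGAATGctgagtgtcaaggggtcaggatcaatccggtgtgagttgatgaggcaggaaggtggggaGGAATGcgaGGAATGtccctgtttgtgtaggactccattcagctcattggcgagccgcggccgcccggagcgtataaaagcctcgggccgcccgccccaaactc

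ANKRD1 had 2 matches, beginning 220 and 128 bases before the start, and CCN2 had 3, beginning 169, 104 and 95 bases before it. Of 35116 RefSeq windows of this length, 11.9% held at least 1 match, 0.94% at least 2 and 0.0826% at least 3. Among the 10 Hippo genes, 8 had windows in the table, and a match was found for ANKRD1, for YAP1 and for 1 of the 2 starts of AMOTL2. The sites of YAP1 and AMOTL2 are shown with their flanks, the second being on the opposite strand and so reading CATTCC.
YAP1, 162 bases before the start: gagtgtgcaGGAATGtagcaactt
AMOTL2, 69 bases before the start: aaactctcaCATTCCtggcatagc

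The STAT motif TTCNNNGAA, which reads the same on both strands and could overlap a TEAD match through the letters TTC, was found in none of the windows of these 8 genes and in 6.57% of all windows. That says only that these letters are absent from these bases. TEAD1 and TEAD4 had no entry.

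The comparison asked which of the 10 transcripts differed with the STAT3 shRNA. ANKRD1 rose, WWTR1 fell, and the other 8 did not pass the test. Over all genes, 17.5% passed a false discovery rate (FDR) of 0.05, with 9.39% higher and 8.13% lower, so 2 of 10 is near that background. The groups did not overlap for 4 of the 10 genes, against 35.7% of all tested genes, and the median log2 fold change of the 10 was -0.012, beside -0.0067 over all tested genes. All fold changes are STAT3 shRNA over control, on the log2 scale with SE, and means are given with SD and n = 3 per group. In bulk RNA, fewer cells with a transcript and less of it per cell cannot be told apart.

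**Figure D1:**
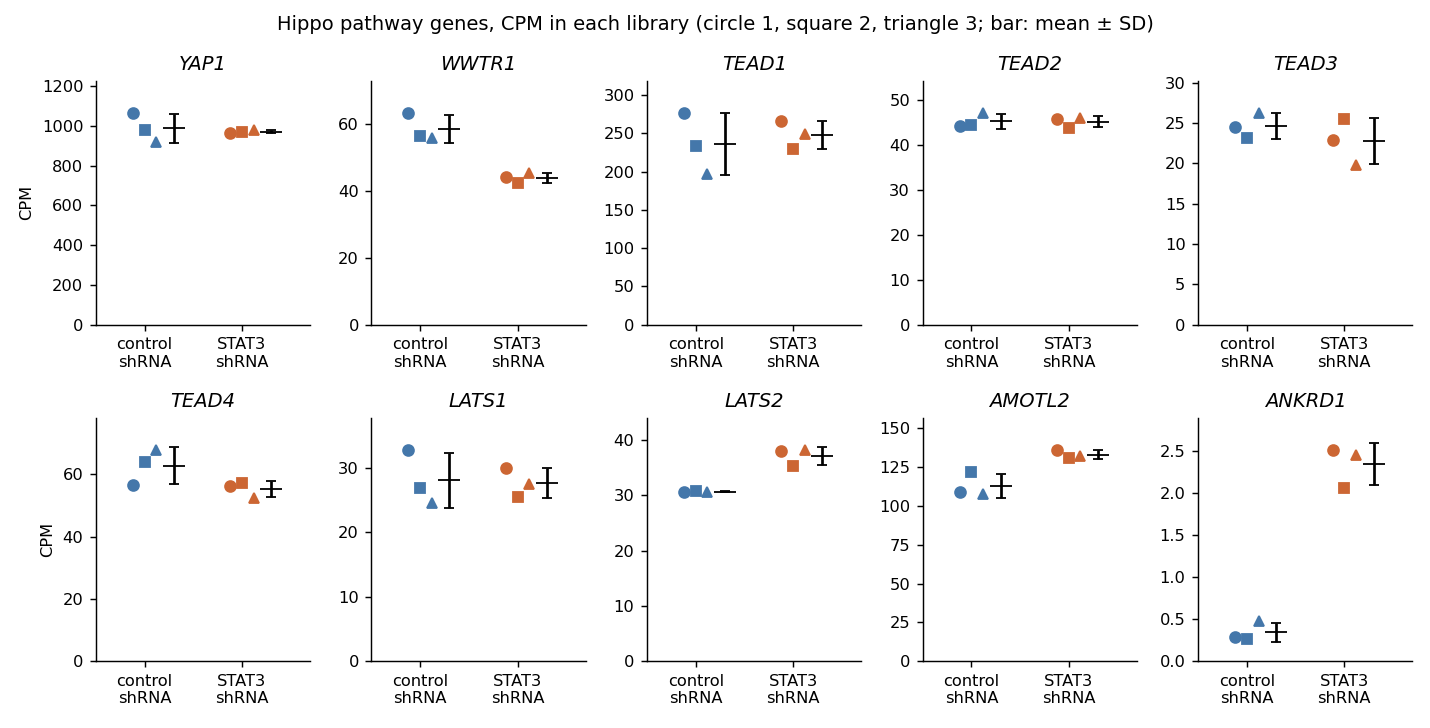
CPM of the 10 Hippo genes in each library, with 1 panel per gene and a linear axis from 0; markers give the library number and bars the mean ± SD of 3 libraries. The groups are apart for WWTR1, LATS2, AMOTL2 and ANKRD1, and overlap for the other 6 genes.

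YAP1, the main coactivator of the pathway, measured 1065, 978.6 and 918 CPM under the control hairpin and 964, 967.9 and 978.7 CPM under the STAT3 hairpin. All 3 STAT3 shRNA values fell inside the control range. Its mean was 987 ± 73.6 and 970 ± 7.6 CPM, and the change of -0.025 ± 0.0836 did not pass the test (edgeR adjusted p = 0.871).

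WWTR1 encodes TAZ, the paralog of YAP with the same role. It measured 63.3, 56.5 and 55.8 CPM under the control hairpin and 44, 42.4 and 45.2 CPM under the STAT3 hairpin. Every STAT3 shRNA library was below every control library. The mean fell from 58.5 ± 4.13 to 43.9 ± 1.44 CPM, which is 1.33-fold lower (-0.42 ± 0.0933, edgeR adjusted p = 0.0148). The call was near the threshold: with library totals as the only scaling the change was -0.32 (edgeR adjusted p = 0.0546). Leaving out control library 2 also ended the call (edgeR adjusted p = 0.0532), as did leaving out STAT3 shRNA library 1, 2 or 3 (0.0763, 0.0533 and 0.0593).

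The ratio of WWTR1 to YAP1 counts within a library does not depend on how libraries are scaled. Its log2 was -4.07, -4.12 and -4.04 under the control hairpin and -4.45, -4.51 and -4.43 under the STAT3 hairpin. The groups did not overlap, and the mean ratio was 1.31-fold lower with the STAT3 shRNA (difference -0.39, exact two-sided permutation p = 0.1, the smallest that 3 against 3 libraries allow).

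The TEAD proteins carry YAP and TAZ to DNA, and all 4 genes were measured. TEAD1 measured 276.8, 233.9 and 196.5 CPM under the control hairpin and 266.4, 229.8 and 248.9 CPM under the STAT3 hairpin. The control libraries spanned the whole range of the other group, and the log2 fold change was 0.076 ± 0.126 (edgeR adjusted p = 0.722). TEAD4 measured 56.6, 64 and 68 CPM under the control hairpin and 56.4, 57.4 and 52.4 CPM under the STAT3 hairpin (-0.18 ± 0.0996, edgeR adjusted p = 0.249). The groups overlapped by control library 1 alone. TEAD2 (45.2 ± 1.66 and 45.2 ± 1.16 CPM, -0.0014 ± 0.0877) and TEAD3 (24.6 ± 1.57 and 22.7 ± 2.85 CPM, -0.12 ± 0.121) also overlapped between the groups.

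Divided by transcript length, TEAD4 made up 40.5 ± 3.96% of the 4 TEAD transcripts in the control libraries and 37.2 ± 1.42% in the STAT3 shRNA libraries. TEAD1 made up 30.3 ± 5% and 33.2 ± 1.96%. TEAD2 made up 20.2 ± 0.802% and 21 ± 0.835%, and TEAD3 8.99 ± 0.576% and 8.63 ± 1.03%. All 4 shares overlapped between the groups, with exact two-sided permutation p of 0.3 to 0.7 and adjusted p over the 4 of 0.6 or 0.7 (n = 3 per group). TEAD4 and TEAD1 made up most of the family in both groups. Their order rests on the lengths used, 1690 bases for TEAD4 and 8477 for TEAD1. Before division by length TEAD1 was the higher, at a mean of 242 CPM over the 6 libraries against 59.1 for TEAD4.

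LATS1 and LATS2 are the kinases that inhibit YAP and TAZ, and LATS2 is itself a target that YAP and TAZ switch on. LATS1 measured 32.8, 26.9 and 24.6 CPM under the control hairpin and 30, 25.4 and 27.5 CPM under the STAT3 hairpin (-0.022 ± 0.13, edgeR adjusted p = 0.929). LATS2 measured 30.6, 30.8 and 30.5 CPM under the control hairpin and 37.9, 35.2 and 38.3 CPM under the STAT3 hairpin. All 3 LATS2 values were above all controls, and the mean was 1.21-fold higher, but it did not pass the test (0.28 ± 0.0908, edgeR adjusted p = 0.0662). With upper-quartile scaling or library totals the adjusted p of LATS2 was 0.036 and 0.0225. The log2 ratio of LATS2 to LATS1 within a library was -0.10, 0.19 and 0.31 under the control hairpin and 0.34, 0.47 and 0.48 under the STAT3 hairpin. These did not overlap either, though control library 3 and STAT3 shRNA library 1 were close (difference 0.29, exact permutation p = 0.1, n = 3 per group).

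**Figure D2:**
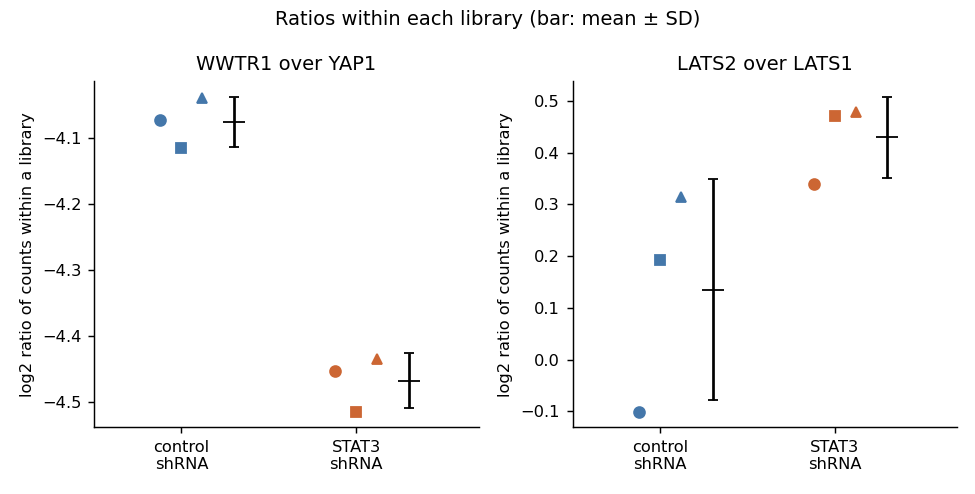
Log2 ratio of counts within each library, WWTR1 over YAP1 and LATS2 over LATS1, for the 2 groups; markers give the library number and bars the mean ± SD of 3 libraries. The first ratio is lower and the second higher in all STAT3 shRNA libraries.

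AMOTL2 is an angiomotin family protein that binds YAP at cell junctions, and it is also a YAP target. It measured 108.5, 121.4 and 107.3 CPM under the control hairpin and 136, 130.4 and 131.9 CPM under the STAT3 hairpin. The groups were apart, with a 1.18-fold higher mean that did not pass the test (0.24 ± 0.0861, edgeR adjusted p = 0.089). Upper-quartile scaling gave AMOTL2 an adjusted p of 0.0456 and library totals 0.0297.

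ANKRD1 encodes a muscle ankyrin repeat protein and is a widely used reporter of YAP and TAZ activity. It had 5, 5 and 9 counts under the control hairpin, or 0.292, 0.267 and 0.474 CPM, and 67, 42 and 45 under the STAT3 hairpin, or 2.52, 2.06 and 2.45 CPM. The lowest STAT3 shRNA library was far above the highest control. The rise was 6.69-fold (2.74 ± 0.342, edgeR adjusted p = 0.000657), and the adjusted p stayed between 9.53e-07 and 0.00626 over the 12 alternative fits. ANKRD1 was under the minimum count of 10 in each control library and passed the filter through the STAT3 shRNA libraries alone. In the filtered fits only a rise could therefore be called. Over all tested genes, 3.97% passed the FDR with a rise of at least 2-fold.

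Divided by transcript length, YAP1 stood apart from the rest. Its mean over the 6 libraries was 181 CPM per kb, which ranked 308 among 12254 tested protein-coding genes and was 17.8-fold that of WWTR1. The TEAD4 (35 CPM per kb), TEAD1 (28.6) and AMOTL2 (27.1) levels followed, and the range of each over the libraries overlapped that of the next. Within libraries, TEAD4 was above TEAD1 in all 6 and TEAD1 above AMOTL2 in 4. TEAD2 (18.5) came next and was apart from both neighbours. WWTR1 (10.2), TEAD3 (7.94) and LATS2 (6.15) again overlapped each with the next. LATS1 (3.71) and ANKRD1 (0.679) each lay below the gene before them in all 6 libraries. The length used was that of the longest protein-coding transcript in GENCODE 29, and a cell that uses a shorter one would have a higher level per kb.

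**Figure D3:**
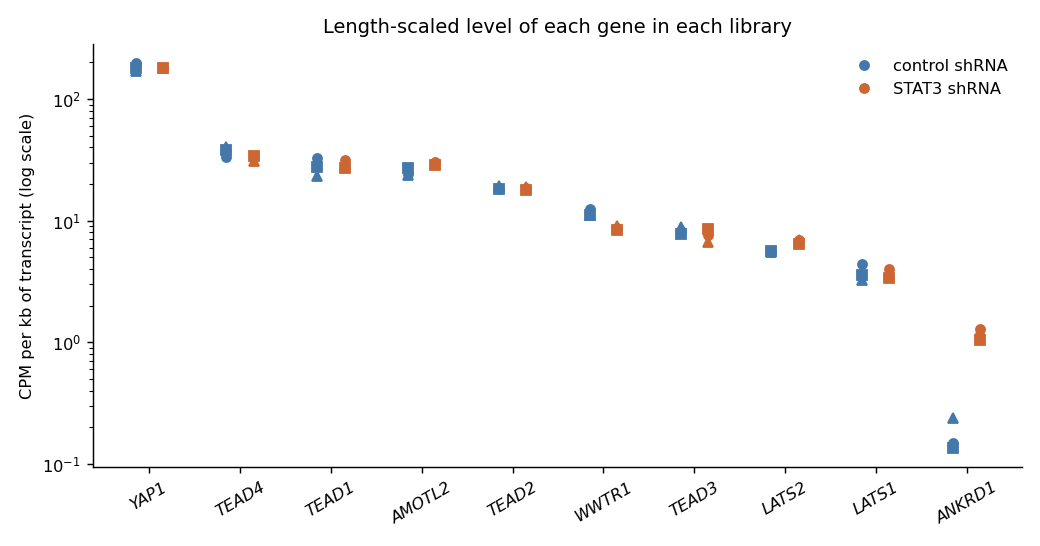
CPM per kb of transcript on a log axis for the 10 genes, ordered by mean; each marker is 1 of the 6 libraries, with control in blue and STAT3 shRNA in orange. YAP1 lies at 170.1 CPM per kb or more in every library, and ANKRD1, at the right, shows the widest gap between its groups.

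Genes that act around these members were then described from 4 lists of 60 genes in all, of which 55 were tested. Of the 55, 10 rose and 7 fell, against 9.39% and 8.13% of all genes, with a median log2 fold change of -0.0022 beside -0.0067 over all genes. The 7 lower genes dropped to 3 when control library 2, or STAT3 shRNA library 1 or 3, was left out, and to 4 when STAT3 shRNA library 2 was. The kinase core upstream of LATS had 1 of 5 genes higher and 0 lower by edgeR and by DESeq2, and 0 lower at an unadjusted p under 0.05. It had 2 higher when control library 1 was left out, and 1 lower when control library 3 was. The higher gene was SAV1, the scaffold of the MST kinases, at 53.7, 50.7 and 47.2 CPM under the control hairpin and 75.4, 68 and 78.3 CPM under the STAT3 hairpin (0.55 ± 0.0971, edgeR adjusted p = 0.00451). SAV1 lies among genes of which 11 of the 40 nearest tested protein-coding ones rose, and their part in its rise was not tested. The MST kinase genes themselves, STK3 (-0.069 ± 0.135) and STK4 (-0.14 ± 0.141), which were named after their values were seen, did not pass.

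Of 26 tested inputs to the pathway, 6 rose and 2 fell (median -0.033), beside 9.39% and 8.13% of all genes. The rising inputs became 9 under upper-quartile factors and 10 under library totals, and 4 when STAT3 shRNA library 3 was left out. The falling inputs were 1 under both scalings, 1 when control library 2 or any STAT3 shRNA library was left out, and 3 when control library 1 was. The KIBRA family of LATS-activating scaffolds split. WWC3 rose from 18.3 ± 3.39 to 54.1 ± 1.76 CPM (1.56 ± 0.137), WWC2 fell from 58.1 ± 5.66 to 33.7 ± 2.22 CPM (-0.78 ± 0.107), and WWC1, named after its values were seen, did not pass (0.26 ± 0.0895). AMOTL1, another angiomotin, measured 80.3, 76.1 and 71.3 CPM under the control hairpin and 116.9, 116.2 and 110.9 CPM under the STAT3 hairpin (0.60 ± 0.085). That is a clear gap with no overlap. PTPN14, a phosphatase that binds YAP and is also one of its targets, rose from 131 ± 18.9 to 192 ± 4.98 CPM (0.55 ± 0.112). TNIK, a kinase related to the MAP4K activators of LATS, had 5, 4 and 2 counts under the control hairpin and 68, 58 and 56 under the STAT3 hairpin (3.76 ± 0.375). It passed the filter through the STAT3 shRNA libraries alone, so in the filtered fits only a rise could be called. WTIP and MAP4K5, the other 2 that rose, were named after their values were seen. The giant cadherin FAT1, a membrane input, was lower (-0.56 ± 0.157, edgeR adjusted p = 0.0381). FAT1 passed in 5 of 12 alternative fits, and without control library 1 its adjusted p was 0.0509.

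STRIPAK, the phosphatase complex that switches off the MST kinases, had 2 of 11 genes higher and 1 lower (all genes: 9.39% and 8.13%). Its median log2 fold change of 0.09 ranged from 0.00057 without control library 3, through 0.037 without control library 2, to 0.21 without control library 1. The higher genes were 1 when control library 2, or STAT3 shRNA library 1 or 3, was left out. MOB4, one of its subunits, measured 32.8, 35.5 and 28.2 CPM under the control hairpin and 12.7, 13.6 and 16.2 CPM under the STAT3 hairpin (-1.18 ± 0.135). Of its 40 nearest tested protein-coding neighbours on chromosome 2, 20 fell and 1 rose, with a median of -0.50. The part of that neighbourhood in the change of MOB4 was not tested. CTTNBP2NL (0.74 ± 0.142) and FGFR1OP2 (0.56 ± 0.133) rose. FGFR1OP2 lost its call without control library 2 (edgeR adjusted p = 0.0731) or STAT3 shRNA library 1 or 3 (0.0813 and 0.0889).

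Among 13 tested TEAD cofactors, breakdown enzymes and 14-3-3 proteins, 1 rose and 4 fell (median 0.00075), beside 9.39% and 8.13% of all genes. VGLL3, a cofactor that binds TEAD in place of YAP, measured 165.1, 145 and 106.6 CPM under the control hairpin and 88, 85.8 and 93.7 CPM under the STAT3 hairpin (-0.64 ± 0.147). The control libraries were widely spread but all above the others. CSNK1E, a casein kinase that helps mark YAP and TAZ for breakdown, fell (-0.58 ± 0.113). The 14-3-3 proteins, which hold phosphorylated YAP in the cytoplasm, were tested through 7 genes, of which 1 rose, 2 fell and 4 did not pass. SFN (-0.65 ± 0.151) and YWHAZ (-0.49 ± 0.126) fell, and YWHAQ rose from 464 ± 9.93 to 668 ± 10.5 CPM (0.53 ± 0.0745). YWHAQ has 19 higher genes and 1 lower one among its 40 nearest tested protein-coding neighbours, with a median of 0.38, and the part of these in its rise was not tested. The 4 lower genes dropped to 1 when control library 2, or STAT3 shRNA library 1 or 3, was left out, and to 2 when STAT3 shRNA library 2 was.

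**Figure D4:**
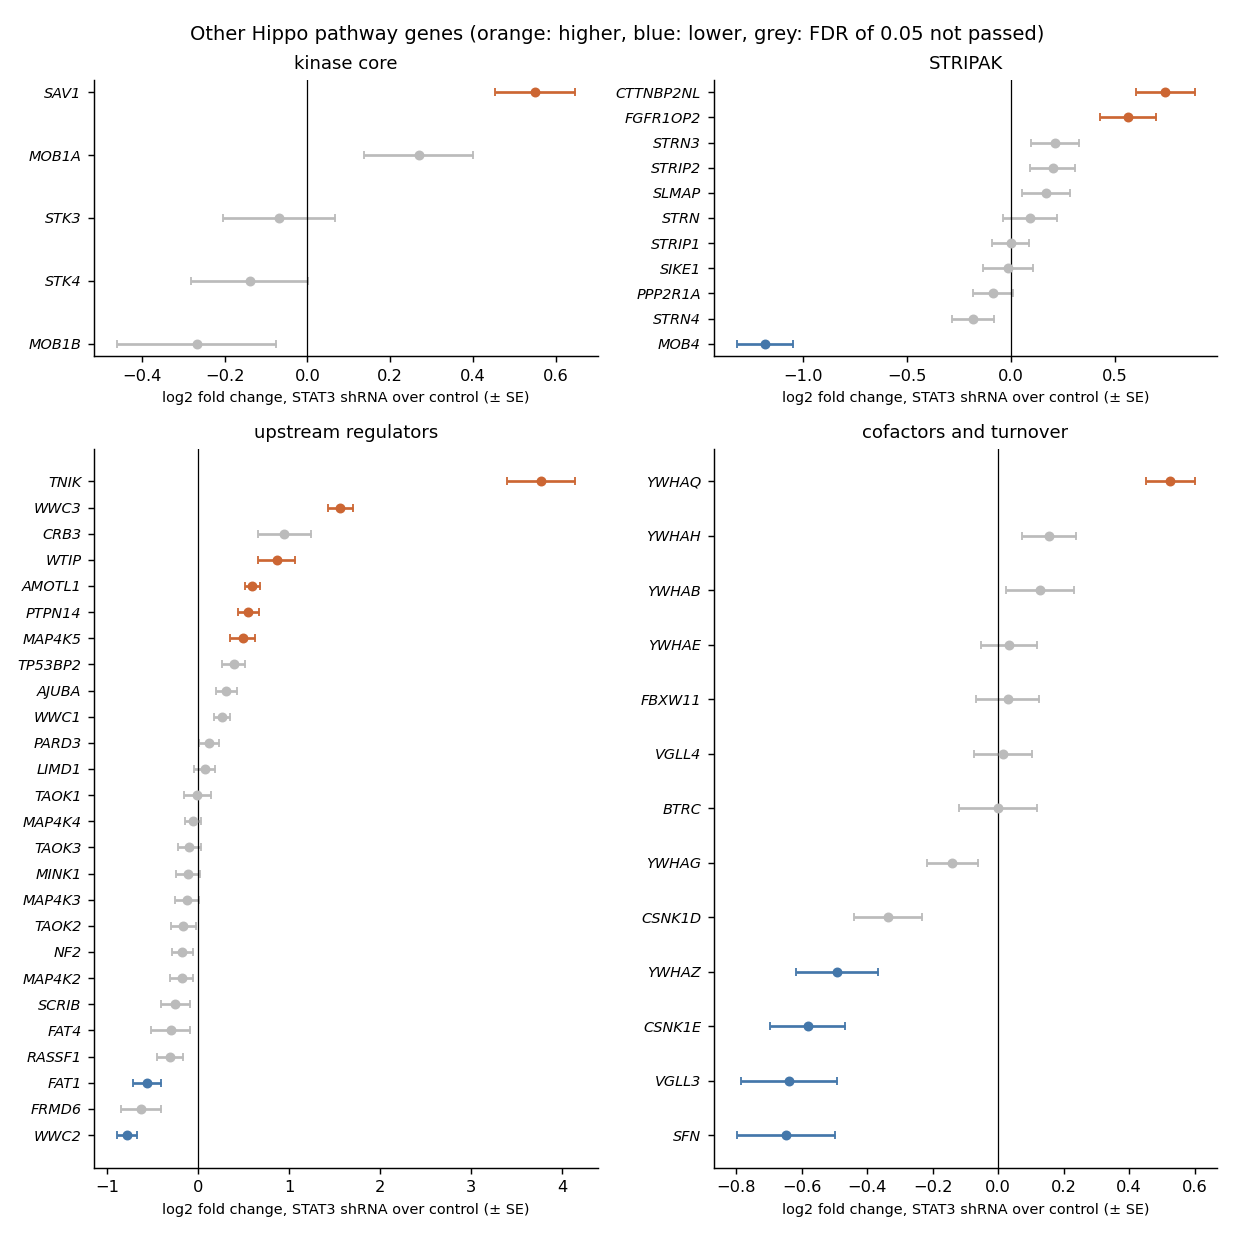
Log2 fold change ± SE (edgeR) of 55 other Hippo pathway genes in 4 lists, each panel with its own axis; orange genes were higher, blue genes lower and grey genes did not pass an FDR of 0.05. Genes on both sides of 0 are seen in every list.

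Target genes gave a more one-sided picture. Of 19 genes of a YAP and TAZ target signature that are not among the 10, 18 were tested, 9 rose and 0 fell, beside 9.39% and 8.13% of all genes. The median log2 fold change was 0.35, against -0.0067 over all genes, and 15 of 18 were positive. At an unadjusted p under 0.05 the count was 10 higher and 1 lower, and DESeq2 called 9 higher and 1 lower. Over the fits that left out 1 library, 6 to 9 targets were higher and 0 or 1 lower, and the 1 appeared when control library 3 or STAT3 shRNA library 3 was left out. With AMOTL2, LATS2 and ANKRD1, which belong to the same signature, 10 of 21 were higher and 0 lower. The list was chosen with earlier results of these data known, and PTPN14 also counts among the 10 higher pathway genes.

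CCN2, or connective tissue growth factor, is a secreted protein widely used as a YAP readout. It measured 15.5, 16 and 14.8 CPM under the control hairpin and 26.3, 30.4 and 44.2 CPM under the STAT3 hairpin. Every STAT3 shRNA library was higher, but they were spread widely, with library 3 the highest (1.12 ± 0.183, edgeR adjusted p = 0.00284). CCN1, its close relative, was named after its values were seen and did not pass (144 ± 7.92 and 167 ± 11.2 CPM, 0.22 ± 0.0891, edgeR adjusted p = 0.128).

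CCDC80, a matrix protein, measured 7.99, 8.01 and 8.38 CPM under the control hairpin and 25.2, 25.5 and 23.6 CPM under the STAT3 hairpin. It had the smallest adjusted p of the targets (1.61 ± 0.107, edgeR adjusted p = 2.33e-05). AXL, a receptor tyrosine kinase, measured 72.8, 76.7 and 79.2 CPM under the control hairpin and 119.2, 129.1 and 115.4 CPM under the STAT3 hairpin (0.67 ± 0.0865). NT5E, the surface enzyme CD73 that makes adenosine, was low, at 1.05, 1.44 and 1.48 CPM under the control hairpin and 3.83, 3.58 and 3.65 CPM under the STAT3 hairpin (1.47 ± 0.233). CCDC80, AXL, NT5E and CCN2 kept their calls in all 12 alternative fits.

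The remaining risers were PTPN14, given above, and 4 genes named after their values were seen. These were the kinase NUAK2 (0.72 ± 0.119), the growth factor TGFB2 (0.90 ± 0.209), ASAP1 (0.54 ± 0.148) and F3, or tissue factor (0.44 ± 0.116). Not all of the signature went this way. IGFBP3, also named after its values were seen, was lower in every STAT3 shRNA library without passing the test (-0.35 ± 0.112, edgeR adjusted p = 0.0632). MYOF differed by 0.026 ± 0.102 and FOXF2 by -0.015 ± 0.0922, both named after their values were seen. Of the 13 target genes with a RefSeq window, 6 had a TEAD motif match in at least 1 window, and 0 had the STAT motif. The 6 were CCN2, NUAK2, PTPN14, TGFB2 and AXL, all higher, and FOXF2, and NUAK2 had 2 matches, 197 and 18 bases before the start. Targets without a match in their 250 bases were CCDC80, NT5E and F3, all higher, and MYOF, IGFBP3 and RBMS3, which did not pass. FJX1, which was not tested, had none either, and it and RBMS3 were named after their values were seen. By window, 6 of 14 held a match, beside 11.9% of all RefSeq windows. As the list holds known targets of YAP and TAZ, which act through TEAD, this share is no result about the STAT3 shRNA. ARHGEF17, ASAP1, CCN1, CRIM1, DOCK5 and GADD45A had no entry.

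**Figure D5:**
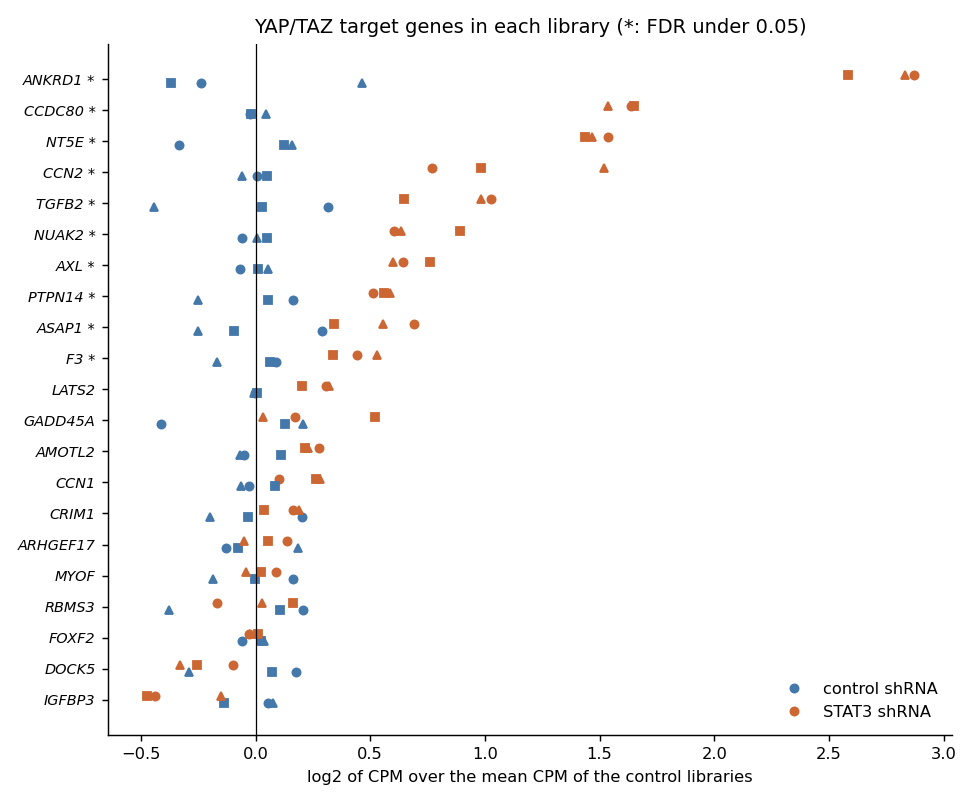
Log2 of CPM over the mean CPM of the control libraries for 18 target genes and for AMOTL2, LATS2 and ANKRD1; each marker is 1 library (control blue, STAT3 shRNA orange), and asterisks mark genes with an FDR under 0.05. All 10 marked genes lie to the right in all 3 STAT3 shRNA libraries.

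Some marker genes of other cell types also differed between the groups, beside 9.39% higher and 8.13% lower over all genes. Of 9 general epithelial markers in the table, all tested, 6 rose and 2 fell, and their sum was 3886 to 4761 CPM in the control libraries and 5548 to 6114 CPM in the STAT3 shRNA libraries. These were 4 and 1 when STAT3 shRNA library 1 or 3 was dropped, and 4 and 2 when control library 2 or STAT3 shRNA library 2 was dropped. Of 8 fibroblast markers in the table, 5 were tested, 0 rose and 2 fell (edgeR, and 0 and 2 at an unadjusted p under 0.05). The 8 summed to 965 to 1013 CPM in the control libraries and 833 to 890 CPM in the STAT3 shRNA libraries. Nearly all of that sum was VIM (928 ± 23.4 and 834 ± 33.4 CPM), which did not pass (-0.15 ± 0.0773, edgeR adjusted p = 0.21). COL1A1 (-1.40 ± 0.108) and FAP fell, while DCN (0.30 ± 0.134) and PDGFRB (0.33 ± 0.183) were positive without passing. FAP had 14, 10 and 21 counts under the control hairpin and 0, 0 and 0 under the STAT3 hairpin. It passed the filter through the control libraries alone, so only a fall could be called. Without control library 1, 6 fibroblast markers were tested, of which 1 rose and 2 fell. Of 6 intestinal markers, 1 was tested, the alkaline phosphatase ALPI, which fell from 1182 ± 207 to 8.33 ± 2.05 CPM (-7.15 ± 0.219, edgeR adjusted p = 2.19e-07). Their sum was 1052 to 1421 CPM with the control and 7.31 to 10.85 CPM with the STAT3 shRNA, nearly all of it ALPI in the control libraries. None of the other intestinal markers reached 1 CPM in any library. With no filter, 0 of the 6 rose and 1 fell, while 5 had positive changes (median 1.56). In each marker list, no measured gene was at 0 in all 6 libraries. Their part in the changes of the Hippo genes was not tested.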

How the data were processed

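The authors deposited whole-number counts per gene for 6 libraries, 3 per group. The library kit, its strandedness, the aligner, counter, genome build and annotation were not given in the sources used here, so reads of overlapping or near-identical genes cannot be told apart, and no coordinates of the table are given. The table had 27452 rows, 26420 with an Ensembl identifier and 1032 named by a running number, which were kept. Symbols turned into dates (23) were restored by identifier.

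Counts were tested in R 4.3.3 with edgeR 4.0.16. Genes passed filterByExpr (minimum count 10, minimum total 15), TMM scaling was used, and the robust quasi-likelihood F test had group as the only term, two-sided, with Benjamini-Hochberg adjustment over 14999 genes at an FDR of 0.05. SE is the log2 fold change over the square root of F. The procedure was tested on simulated counts. Ratios and shares within libraries were compared by exact permutation over the 20 assignments. DESeq2 1.42.0, other scalings, no filter, a replicate block and leaving out each library were alternatives. A count of 0 allows up to 3 counts, or 0.113 to 0.175 CPM, which covers counting error only. Libraries within a group differed by 4.2 to 43 chi-square per degree of freedom, above counting noise, so no pair was 1 library in 2 copies; repeat preparations of 1 RNA were not tested for.

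The members and lists were chosen with earlier results of these data known. Genes named were STAT3, all 10 members, and from each of the 5 lists up to 4 called genes per direction with the smallest FDR; others are marked in the text. Neighbours are the 20 nearest tested protein-coding genes on each side in GENCODE 29. Promoter sequences are from RefSeq (GRCh38.p14), matched by symbol.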

Additional observations from a re-analysis of the deposited data

How the results depend on the processing

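Of the Hippo genes, ANKRD1 kept its call in all 12 alternatives and WWTR1 in 7. Under upper-quartile factors 3 members were higher and under library totals 3, as LATS2 and AMOTL2 passed, and the lower members were 0 with library totals and 0 to 1 when 1 library was left out. The higher members were 1 in each fit without 1 library. Library totals gave 68.7% of calls over all genes as higher, against 53.6% here, with 1916 higher and 874 lower, and shifted the median by 0.097 on the log2 scale. Leaving out 1 library gave 796 to 2068 higher and 666 to 2030 lower genes over the whole table, 4098 in all without control library 1 and 1462, 1475 and 1527 when STAT3 shRNA library 1, STAT3 shRNA library 3 or control library 2 was left out. Pathway genes ranged from 7 to 12 higher and 3 to 9 lower, and targets from 6 to 9 higher and 0 to 1 lower. With no filter and with DESeq2, 1 target was lower. The direction of genes near 0 was not settled. Under upper-quartile scaling YAP1 became 0.028, TEAD2 0.052 and LATS1 0.0302, and under library totals they became 0.0703, 0.096 and 0.071. When 1 library was left out, YAP1 ranged from -0.069 to 0.045 (positive without control library 1), TEAD1 from -0.035 to 0.22 (negative without control library 3), TEAD2 from -0.0199 to 0.035 (positive when control library 3 or STAT3 shRNA library 2 was left out) and LATS1 from -0.11 to 0.12 (positive when control library 1 or STAT3 shRNA library 2 was left out). The difference in the WWTR1 to YAP1 ratio ranged from -0.41 to -0.37 and that of LATS2 to LATS1 from 0.18 to 0.38 when 1 library was left out. The TEAD1 share difference ranged from 0.447 to 5.44 percentage points, TEAD2 from 0.329 to 1.27, TEAD3 from -0.922 to 0.0913 and TEAD4 from -5.54 to -1.66. With raw counts in place of length-scaled ones the TEAD2 share difference was -0.191. The causes of these shifts were not tested. The deviations of same-numbered libraries from their group means correlated at 0.279, 0.191 and -0.227, so the numbers were not taken as pairs. With the replicate block, 1210 genes were higher and 1068 lower, with 1 higher and 1 lower member, 11 and 7 pathway genes and 8 and 0 targets. Depth limits ANKRD1 and TNIK, which had under 10 counts in each control library. Both passed the filter only through their counts in the STAT3 shRNA libraries.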

Other observations

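YAP1 was far more abundant than the genes beside it on chromosome 11. Of its 5 nearest tested protein-coding genes on each side, TMEM123 was highest at 59.6 CPM per kb, against 181 for YAP1. The apoptosis inhibitor genes BIRC3 (16.4 CPM per kb) and BIRC2 (11.4) lie next to it on one side. The matrix protease MMP7 (1.77 ± 0.181), ARHGAP42 (2.02 ± 0.214), CEP126 (0.67 ± 0.144) and BIRC3 (0.46 ± 0.138) rose with the STAT3 shRNA (edgeR), while YAP1 did not pass the test. Of the 40 nearest such neighbours of YAP1, 7 rose (edgeR), with a median of 0.17, beside 9.39% of all tested genes. These genes were chosen after their values were seen.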
